A study of Mus musculus with 10 samples.

Results

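The 10 genes examined here encode the receptor chains that bind IL-4 and IL-13 (Il4ra, Il13ra1 and Il13ra2), the Janus kinases attached to those chains (Jak1, Jak2 and Tyk2), the transcription factor STAT6 (Stat6) and 3 feedback inhibitors of the SOCS family (Cish, Socs1 and Socs2). They were picked out by gene symbol, as a set proposed with earlier results of these data known, and all 10 were found among the 22731 genes of the count table. IL-13 binds a complex of IL-4Rα and IL-13Rα1, the form of the IL-4 receptor carried by fibroblasts and other cells outside the blood lineages. The bound complex activates JAK1, together with TYK2 or JAK2, and these phosphorylate STAT6, which enters the nucleus and switches on genes such as that of the eosinophil chemokine eotaxin. IL-13Rα2 binds IL-13 tightly, lacks the domain that recruits Janus kinases and is known chiefly as a decoy that takes IL-13 away from the signalling receptor. CIS, SOCS1 and SOCS2 are induced by STAT proteins and in turn restrain cytokine receptors or their kinases.

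Fibroblasts were sequenced in bulk in 3 groups. In the IL13KO cocultures (n = 3) they were kept with group 2 innate lymphoid cells (ILC2s) from the knockout of Il13, in the WT cocultures (n = 3) with wild-type ILC2s, and in the monocultures (n = 4) without ILC2s. ILC2s are tissue lymphocytes without antigen receptors that secrete IL-5 and IL-13. The genotype label of all 10 libraries is C57B6, and the series title names the pancreas. Neither the age or sex of the mice, the length of culture nor the animal behind a library is given in the sources used here, so p-values measure the spread between these libraries, which may be technical. Fibroblasts entered culture after a sort for podoplanin and PDGFRα that left out cells bearing CD45, CD31 or Epcam. They were sorted again after culture, and the design text lists that gate as CD45+, although CD45 marks leukocytes. Total counts per library were 17277432 to 17661229 for IL13KO coculture, 18801744 to 22087459 for WT coculture and 10710410 to 14366199 for monoculture. WT libraries are named by their numbers in the table, which are 1, 3 and 4.

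The labels were checked against the markers. All 8 fibroblast markers, among them Pdgfra, Pdpn and Col1a1, had reads in every library. Reads of Il13 numbered 0 in each IL13KO coculture, 30, 120 and 121 in the WT cocultures, and 0 in each monoculture. For Ptprc, the CD45 gene, the IL13KO cocultures had 0, 1 and 0 reads, the WT cocultures 6, 3 and 9, and each monoculture 0. Il5, a second ILC2 cytokine gene, had 30, 64 and 12 reads with IL13KO ILC2s, 80, 265 and 371 with WT ILC2s and 0 in the monocultures. The ILC2 receptor gene Il7r had 0 reads in every library but WT coculture 4, which had 5. The summed level of the leukocyte list (all 8 genes in the table) was 15.4 to 23.0 CPM (counts per 1e+06 counts, TMM-normalised) in the IL13KO cocultures, 97.6 to 124 CPM for the WT cocultures and 3.33 to 7.52 CPM for monoculture, and in the cocultures most of it was Cd53. The summed level of the ILC2 list (11 of 12 genes in the table) was 64.9 to 69.1 CPM, 98.9 to 110 CPM and 62.7 to 77.9 CPM in the same groups. Rora, a gene of that list that fibroblasts also express, averaged 55.3 CPM in the IL13KO cocultures, 41.7 CPM in the WT cocultures and 63.7 CPM in the monocultures. Hlf, another transcription factor gene of the list, averaged 3.54 CPM in the IL13KO cocultures, 36.5 CPM in the WT cocultures and 2.51 CPM in the monocultures. The summed fibroblast markers were 21825 to 27084 CPM in the IL13KO cocultures, 11185 to 15618 CPM in the WT cocultures and 7355 to 10083 CPM in the monocultures. The markers did not move together. Col1a1 averaged 11570, 6756 and 1070 CPM in the same order of groups. Dcn averaged 1650, 369 and 2532 CPM and Lum 234, 49.0 and 635 CPM, both lower in the cocultures than in monoculture. The mural and stellate cell list summed to 89.7 to 125 CPM, 27.1 to 31.2 CPM and 72.3 to 88.9 CPM, and the macrophage list to 35.3 to 37.1 CPM, 14.9 to 17.7 CPM and 58.4 to 65.6 CPM, in the same order of groups. The lower macrophage sums in the cocultures came from Lyz2, which averaged 23.8, 2.85 and 53.4 CPM. Csf1r, the other macrophage gene tested, had log2 fold changes over monoculture of 0.44 in IL13KO and 0.52 in WT coculture. In WT coculture its value became -0.62 when the GC and length trend described below was removed. The part of remaining ILC2s or of mural, stellate or macrophage cells in the values below was not tested. In bulk RNA, fewer cells of a type and less RNA per cell cannot be told apart.

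Most of the 10 genes were higher in both cocultures than in monoculture, and 4 differed between the cocultures. In the IL13KO cocultures 8 genes rose against monoculture and none fell. Of all 16344 genes tested there, 57.4% were called, 30.1% as higher and 27.3% as lower. The genes that rose there were Il4ra, Il13ra1, Il13ra2, Stat6, Jak1, Tyk2, Cish and Socs1. In the WT cocultures 8 genes rose against monoculture and none fell, with Socs2 in the place of Jak1. Of all genes tested there, 62.5% were called, 32.8% as higher and 29.7% as lower. The median log2 fold change of the 10 genes was 2.65 in the IL13KO cocultures and 2.59 in the WT cocultures, against a median of 0.00 and 0.02 over all genes tested. Between the cocultures, Il13ra2, Cish and Socs2 were lower and Jak1 was higher with IL13KO than with WT ILC2s. Of all genes tested, 23.3% were called in that comparison, 11.7% as higher and 11.6% as lower, 3810 genes together, a number that fell to 2337 without IL13KO coculture 2, to 2482 without IL13KO coculture 1 and to 2523 without WT coculture 4. Calls were made with edgeR's quasi-likelihood test where the p adjusted by Benjamini-Hochberg fell under 0.05, and log2 fold changes are given ± SE. All 10 genes passed the filter on low counts. In the monocultures 9 of them exceeded its level of 0.578 CPM in all 4 libraries and Tyk2 in 3 of 4. Both coculture comparisons share the same 4 monocultures. Groups without overlap, as given for single genes below, were common among all genes tested. Their share was 59.2% for IL13KO coculture against monoculture, 60.9% for WT coculture against monoculture and 49% between the cocultures.

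**Figure D1:**
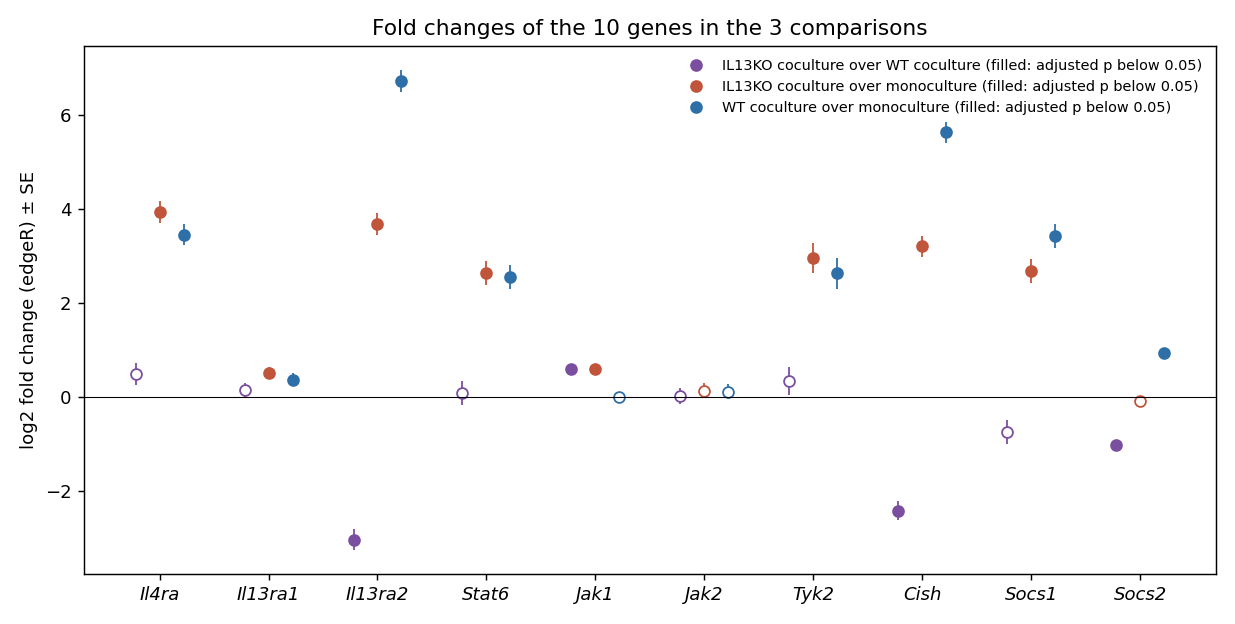
Log2 fold changes ± SE (y axis) of the 10 genes (x axis) for IL13KO coculture over WT coculture, IL13KO coculture over monoculture and WT coculture over monoculture, filled where the edgeR adjusted p was below 0.05. Il13ra2 and Cish stand highest over monoculture in the WT coculture, at 6.71 and 5.62, and lowest between the cocultures, at -3.04 and -2.42.

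Il4ra (ENSMUSG00000030748, chromosome 7, 125552120 to 125579474, plus strand, GRCm38) encodes IL-4Rα, the chain common to both receptor types for IL-4. It stood at 824, 838 and 840.5 CPM in the IL13KO cocultures, 773, 647 and 371 CPM in the WT cocultures and 48.2, 48.4, 76.2 and 46.5 CPM in the monocultures. Every coculture was above every monoculture, and the IL13KO libraries lay close together while the WT libraries were spread, with WT coculture 4 the lowest. Il4ra was 15.2-fold higher in IL13KO coculture than in monoculture (log2 fold change 3.93 ± 0.23, edgeR adjusted p = 2.08e-07) and 10.9-fold higher in WT coculture than in monoculture (3.45 ± 0.23, edgeR adjusted p = 1.02e-07). The IL13KO libraries were all above the WT libraries, but the difference of 0.48 ± 0.23 did not pass the test (edgeR adjusted p = 0.156). Without single libraries that difference ranged from 0.23 to 0.71.

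Il13ra1 (ENSMUSG00000017057, chromosome X, 36112110 to 36171259, plus strand) encodes the chain that pairs with IL-4Rα to bind IL-13. It stood at 190.0, 173 and 173 CPM in the IL13KO cocultures, 148, 183 and 156 CPM in the WT cocultures and 141, 148, 98.5 and 117 CPM in the monocultures. Only the IL13KO libraries were all above the monocultures, and the WT libraries overlapped with both other groups. Il13ra1 rose by 0.50 ± 0.13 on the log2 scale in IL13KO coculture against monoculture (edgeR adjusted p = 0.00588) and by 0.36 ± 0.13 in WT coculture against monoculture (edgeR adjusted p = 0.0302). The call for the WT coculture was lost without WT coculture 3 (edgeR adjusted p = 0.152), without monoculture 3 (0.0638) or 4 (0.0790), with only the compared groups in the fit (0.0570) and with upper-quartile scaling (0.133), over a range of 3.59e-05 to 0.133 for the other settings and 0.0132 to 0.152 for the left-out libraries. The IL13KO over WT difference was 0.14 ± 0.14 (edgeR adjusted p = 0.519).

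Il13ra2 (ENSMUSG00000031289, chromosome X, 147383476 to 147429192, minus strand) encodes the decoy chain and had the widest range of the 10 genes on the log scale. It stood at 48.0, 56.7 and 64.4 CPM in the IL13KO cocultures, 398, 490.2 and 499 CPM in the WT cocultures and 7.26, 4.22, 3.23 and 3.02 CPM in the monocultures. The 3 groups did not overlap, and the IL13KO libraries lay between the other groups. Against monoculture Il13ra2 was 12.8-fold higher in IL13KO coculture (log2 fold change 3.67 ± 0.23, edgeR adjusted p = 2.49e-07) and 105-fold higher in WT coculture (6.71 ± 0.24, edgeR adjusted p = 1.04e-09). With IL13KO ILC2s its level was 0.122 times that with WT ILC2s (log2 fold change -3.04 ± 0.22, edgeR adjusted p = 1.54e-06). Of all genes tested, 0.373% had a lower log2 fold change in that comparison. The monoculture level rests on 35 to 86 reads per library, against 847 to 1136 in the IL13KO and 8864 to 9567 in the WT cocultures.

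**Figure D2:**
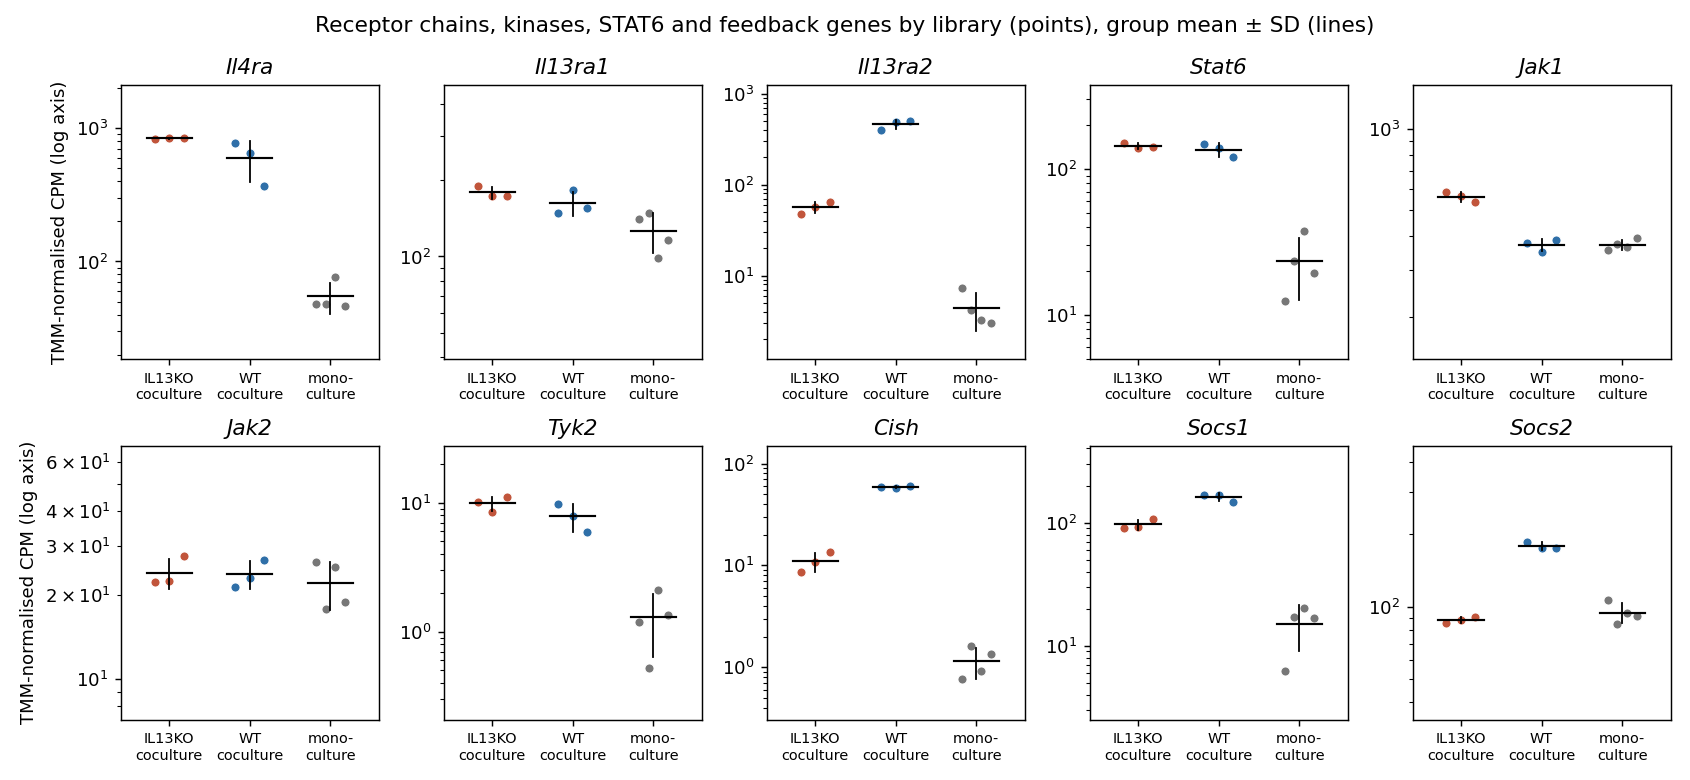
TMM-normalised CPM (y axis, log scale) of each gene in each library (points), by group (x axis), with the group mean ± SD. In Il13ra2 and Cish the IL13KO cocultures lie apart from both other groups, below the WT cocultures and above the monocultures, whereas Stat6 and Tyk2 have overlapping cocultures above all monocultures.

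The balance of decoy to signalling chain was measured as a ratio of CPM per kilobase of exon within each library. The Il13ra2 to Il13ra1 ratio was 0.411, 0.533 and 0.604 in the IL13KO cocultures, 4.37, 4.36 and 5.22 in the WT cocultures and 0.0838, 0.0463, 0.0533 and 0.0422 in the monocultures. The decoy transcript thus exceeded that of the signalling chain in each WT coculture and in no IL13KO coculture or monoculture. The log2 ratio was higher by 3.23 in IL13KO coculture than in monoculture and by 6.41 in WT coculture than in monoculture (exact two-sided permutation test, p = 0.0571 for each, the smallest value that 3 against 4 libraries allow, adjusted p = 0.0857 over the 6 ratio comparisons). Between the cocultures it differed by -3.18 (exact permutation test, p = 0.1, the smallest that 3 against 3 libraries allow, adjusted p = 0.12). The Il4ra to Il13ra1 ratio was 2.68, 2.996 and 2.997 in the IL13KO cocultures, 3.23, 2.19 and 1.47 in the WT cocultures and 0.211, 0.202, 0.479 and 0.246 in the monocultures. Il4ra was thus the more abundant of the pair per kilobase in every coculture and the less abundant in every monoculture. The cocultures overlapped in this ratio, with a log2 difference of 0.40 for IL13KO over WT (exact permutation test, p = 0.4). Both ratios were taken without removal of the GC and length trend described below. Il4ra has 55.8% and Il13ra1 41.2% GC. With that trend removed, the log2 fold changes of Il4ra over monoculture fell to 2.44 in IL13KO and 2.14 in WT coculture. Those of Il13ra1 reached at most 0.87 and 0.76 over the other settings. Whether the ratio still crosses 1 without the trend was not tested.

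**Figure D3:**
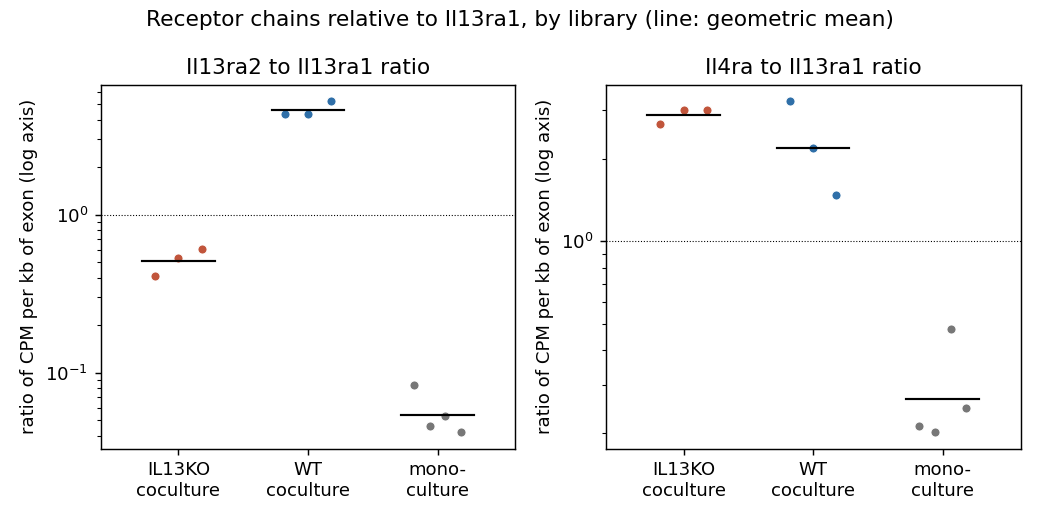
Ratio of Il13ra2 to Il13ra1 (left) and of Il4ra to Il13ra1 (right) in CPM per kilobase of exon (y axes, log scale) for each library (points) by group (x axes), with the geometric mean as a line. The 3 groups do not overlap in the first ratio, and in the second both cocultures lie above 1 and all monocultures below it. The GC and length trend was not removed from either ratio.

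Of the kinases, Jak1 (ENSMUSG00000028530, chromosome 4, 101152367 to 101265282, minus strand) serves IL-4Rα and many other cytokine receptors. It was the one gene of the 10 that was called higher with IL13KO than with WT ILC2s. It stood at 582, 564 and 533 CPM in the IL13KO cocultures, 377, 349.5 and 386 CPM in the WT cocultures and 355, 375, 365 and 392 CPM in the monocultures. The IL13KO libraries were above all others, and the WT libraries overlapped with the monocultures. Jak1 was 1.51-fold higher in IL13KO than in WT coculture (log2 fold change 0.59 ± 0.08, edgeR adjusted p = 0.000296) and 1.504-fold higher in IL13KO coculture than in monoculture (0.59 ± 0.08, edgeR adjusted p = 4.49e-05). In WT coculture against monoculture the log2 fold change was -0.00 ± 0.08 (edgeR adjusted p = 0.965), and it was called as lower, at -0.28, when the GC and length trend described below was removed (edgeR adjusted p = 0.00289, against 0.971 at most with the other settings).

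Tyk2 (ENSMUSG00000032175, chromosome 9, 21104068 to 21131243, minus strand), a kinase that partners IL-13Rα1, was low in all groups. It stood at 10.04, 8.47 and 11.1 CPM in the IL13KO cocultures, 9.69, 7.94 and 5.87 CPM in the WT cocultures and 1.18, 0.518, 2.12 and 1.34 CPM in the monocultures, where this meant 7 to 23 reads. All cocultures were above all monocultures, and the cocultures overlapped. Tyk2 rose by 2.95 ± 0.32 on the log2 scale in IL13KO coculture (edgeR adjusted p = 1.08e-05) and by 2.63 ± 0.32 in WT coculture (edgeR adjusted p = 1.63e-05), both against monoculture. Jak2 (ENSMUSG00000024789, chromosome 19, 29251828 to 29313080, plus strand), used by the growth hormone and common beta chain receptors as well, stood at 22.3, 22.5 and 27.6 CPM in the IL13KO cocultures, 21.4, 23.1 and 26.8 CPM in the WT cocultures and 26.3, 17.8, 25.4 and 18.9 CPM in the monocultures. Its 3 groups overlapped, and no comparison passed the test. The Jak2 log2 fold changes were 0.02 ± 0.17 for IL13KO over WT coculture, 0.13 ± 0.17 for IL13KO coculture over monoculture and 0.11 ± 0.16 for WT coculture over monoculture.

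Stat6 (ENSMUSG00000002147, chromosome 10, 127642986 to 127660957, plus strand) encodes the transcription factor at the end of the chain. It stood at 151, 139.5 and 141 CPM in the IL13KO cocultures, 148, 139 and 120.4 CPM in the WT cocultures and 12.5, 23.6, 37.6 and 19.5 CPM in the monocultures. The cocultures overlapped with each other and were all above the monocultures, of which monoculture 1 was the lowest and monoculture 3 the highest. Stat6 was 6.196-fold higher in IL13KO coculture (log2 fold change 2.63 ± 0.25, edgeR adjusted p = 3.94e-06) and 5.85-fold higher in WT coculture (2.55 ± 0.25, edgeR adjusted p = 2.32e-06) than in monoculture. The difference between the cocultures was 0.08 ± 0.25 (edgeR adjusted p = 0.851). These are transcript levels, and phosphorylation of STAT6 was not measured.

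Of the feedback genes, Cish and Socs2 were called lower in IL13KO than in WT coculture, and Socs1 missed the threshold closely. Cish (ENSMUSG00000032578, chromosome 9, 107296026 to 107302784, plus strand) encodes CIS, an inhibitor known for its induction by STAT5 and its action on receptors that signal through STAT5. Cish stood at 8.68, 10.7 and 13.4 CPM in the IL13KO cocultures, 58.7, 57.0 and 60.0 CPM in the WT cocultures and 0.760, 1.63, 0.922 and 1.34 CPM in the monocultures. The 3 groups did not overlap, and the WT libraries differed little among themselves. The monocultures held 9 to 22 Cish reads per library, against 153 to 237 in the IL13KO and 1112 to 1308 in the WT cocultures. Against monoculture Cish was 9.20-fold higher in IL13KO coculture (log2 fold change 3.20 ± 0.23, edgeR adjusted p = 5.56e-07) and 49.2-fold higher in WT coculture (5.62 ± 0.22, edgeR adjusted p = 2.24e-09). With IL13KO ILC2s the level was 0.187 times that with WT ILC2s (-2.42 ± 0.19, edgeR adjusted p = 3.22e-06). Of the Cish exon bases 11.5% lie opposite predicted genes on the other strand, and the strand setting of the counting is not given in the sources used here.

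STAT dimers bind palindromes of the form TTCNNNGAA, and STAT6 also those with a spacer of 4 bases between the same ends, so the windows from 250 bases before to 30 bases after the RefSeq transcription start (GRCm38.p6) were searched for both. With any base allowed in the spacer, each form reads alike on both strands, though a single match need not. Windows were found for 9 of the 10 genes, all but Socs2. The 3 shown belong to the genes that were lowest in IL13KO relative to WT coculture among those 9, on the strand of the gene and with matches in capitals. They are chr9:107296409-107296688 (plus strand) for Cish, chrX:147429163-147429442 (minus strand) for Il13ra2 and chr16:10785507-10785786 (minus strand) for Socs1.
Cish: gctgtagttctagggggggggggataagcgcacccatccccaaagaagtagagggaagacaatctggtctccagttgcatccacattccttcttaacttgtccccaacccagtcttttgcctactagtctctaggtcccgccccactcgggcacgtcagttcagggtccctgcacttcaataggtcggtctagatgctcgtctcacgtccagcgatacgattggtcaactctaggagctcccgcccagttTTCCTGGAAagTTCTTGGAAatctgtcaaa
Il13ra2: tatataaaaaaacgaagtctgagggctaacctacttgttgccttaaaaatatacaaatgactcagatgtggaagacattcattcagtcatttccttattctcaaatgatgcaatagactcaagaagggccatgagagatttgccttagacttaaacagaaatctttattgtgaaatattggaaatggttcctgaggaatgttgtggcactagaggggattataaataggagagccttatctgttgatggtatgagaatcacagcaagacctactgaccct
Socs1: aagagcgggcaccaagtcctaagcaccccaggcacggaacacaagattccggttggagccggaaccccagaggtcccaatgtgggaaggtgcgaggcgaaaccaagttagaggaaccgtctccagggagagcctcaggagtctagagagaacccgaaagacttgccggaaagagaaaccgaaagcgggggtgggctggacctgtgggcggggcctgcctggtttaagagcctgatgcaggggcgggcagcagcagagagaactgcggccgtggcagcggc
The Cish window held 2 matches to TTCNNNGAA, TTCCTGGAA at the start site itself (position 1) and TTCTTGGAA at position 12. Of 32851 mouse windows of the same length, 7.83% held at least 1 such match and 0.408% at least 2. In the GENCODE annotation both Cish matches lie in an exon of 1 of its 5 transcripts and 43 and 32 bases before the start of the next coding transcript. None of the other 8 windows held TTCNNNGAA, and none of the 9 held the form with 4 spacer bases, which 6.50% of all windows held. The letters describe the sequence and not the binding of a protein.

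Socs1 (ENSMUSG00000038037, chromosome 16, 10782240 to 10785536, minus strand) encodes an inhibitor that binds JAK1, JAK2 and TYK2 directly. It stood at 90.2, 92.4 and 107 CPM in the IL13KO cocultures, 168, 169 and 148 CPM in the WT cocultures and 6.25, 17.0, 20.4 and 16.8 CPM in the monocultures. The 3 groups did not overlap. Socs1 was 6.39-fold higher in IL13KO coculture (log2 fold change 2.68 ± 0.26, edgeR adjusted p = 4.06e-06) and 10.7-fold higher in WT coculture (3.42 ± 0.26, edgeR adjusted p = 2.89e-07) than in monoculture. The difference between the cocultures, -0.74 ± 0.26, missed the threshold in the fit of all 10 libraries (edgeR adjusted p = 0.0529). It passed with only the cocultures in the fit (edgeR adjusted p = 0.000141), after removal of the GC and length trend (-0.94, 0.000797), without monoculture 1 (0.000219) or monoculture 3 (0.0321), in limma-voom (0.00845) and in DESeq2 (0.0358), over a range of 0.000141 to 0.113 for the other settings and 0.000219 to 0.160 for the left-out libraries.

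Socs2 (ENSMUSG00000020027, chromosome 10, 95385362 to 95417180, minus strand) encodes an inhibitor best known for restraining growth hormone signalling. It stood at 85.9, 88.3 and 90.5 CPM in the IL13KO cocultures, 186, 175 and 175 CPM in the WT cocultures and 106, 84.7, 94.0 and 91.5 CPM in the monocultures. The WT libraries stood above all others, and the IL13KO libraries overlapped with the monocultures. Socs2 was 1.90-fold higher in WT coculture than in monoculture (log2 fold change 0.93 ± 0.09, edgeR adjusted p = 2.26e-06). In IL13KO coculture it was 0.493 times the WT level (-1.02 ± 0.10, edgeR adjusted p = 1.39e-05) and did not pass the test against monoculture (-0.09 ± 0.09, edgeR adjusted p = 0.403).

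The spread within groups was shared by several of the genes. Monoculture 3 had the highest monoculture level of Il4ra, Stat6, Tyk2 and Socs1 and the lowest of Il13ra1. WT coculture 4 had the lowest WT level of Il4ra, Stat6, Tyk2 and Socs1 and the highest of Il13ra2, Cish, Jak1 and Jak2. Il4ra, Stat6, Tyk2 and Socs1 are the 4 genes of the 10 with the highest GC content of the longest transcript (53.7 to 58.8%, against a median of 49.6% over the genes tested). Across 16313 genes, log2 fold change and GC content had a Spearman correlation of 0.404 for IL13KO coculture over monoculture, 0.339 for WT coculture over monoculture and 0.05 for IL13KO over WT coculture, a description over genes that share the same libraries. When the trends with GC content and with transcript length were removed from each library, the log2 fold changes over monoculture were 2.44 in IL13KO and 2.14 in WT coculture for Il4ra, 1.70 and 1.72 for Stat6, and 1.41 and 1.30 for Tyk2. For Socs1 they were 1.37 and 2.31, and for Cish 2.10 and 4.66, in the same order of groups. Those of Il13ra2, the gene lowest in GC content (37.4%), were larger, at 4.30 and 7.36. All of these stayed past the threshold. Between the cocultures the removal left Il13ra2 at -3.06, Cish at -2.55, Socs2 at -1.05 and Jak1 at 0.55.

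**Figure D4:**
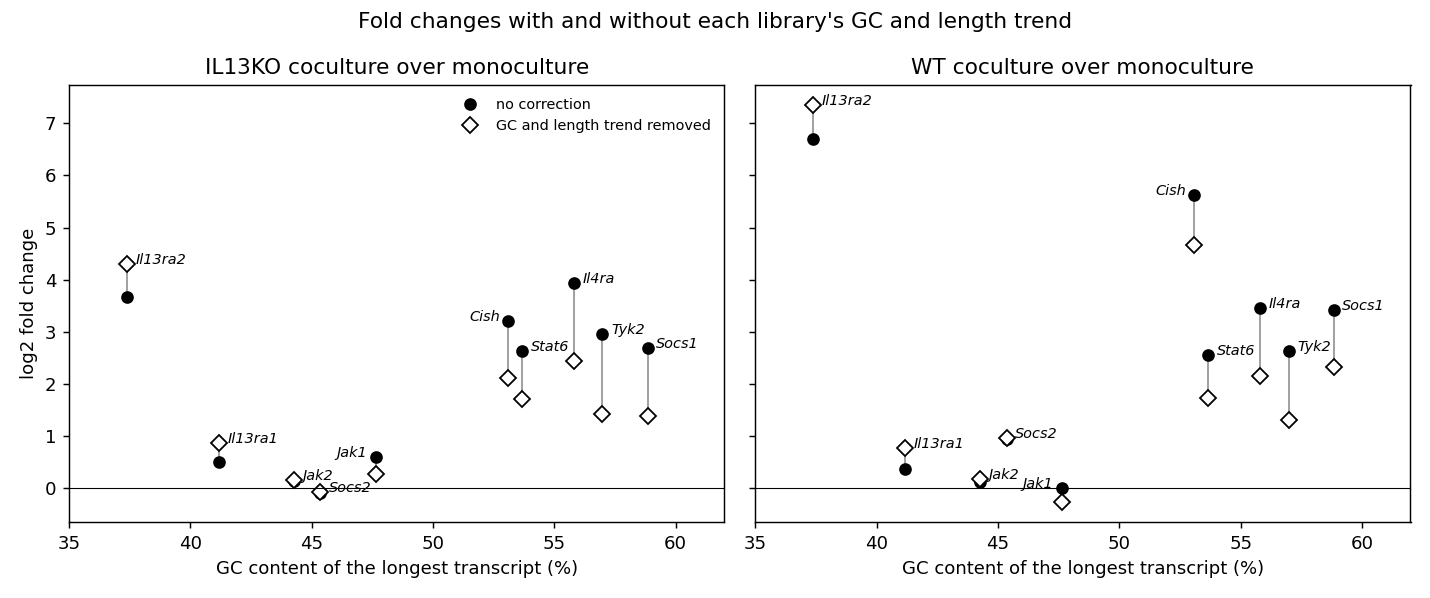
Log2 fold change over monoculture (y axis) against the GC content of the longest transcript (x axis, %) for the 10 genes in IL13KO coculture (left) and WT coculture (right), without correction (filled) and with each library's GC and length trend removed (open). The 5 genes with the highest GC content move down with the removal, and Il13ra2, at 37.4%, moves up.

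Per kilobase of exon, the order of the 10 genes differed between groups. In the IL13KO cocultures Il4ra was the most abundant (139 ± 1.47 CPM per kilobase, SD, n = 3), followed by Jak1 (77.4 ± 3.43) and Il13ra1 (48.2 ± 2.62). Socs1 (33.2 ± 3.12) and Stat6 (32.7 ± 1.34) overlapped, Il13ra2 (24.7 ± 3.59) and Socs2 (9.26 ± 0.246) came next, and Jak2 (4.79 ± 0.596) stood above Cish (1.70 ± 0.372) and Tyk2 (1.44 ± 0.190), which overlapped. In the WT cocultures the decoy Il13ra2 was first (203 ± 24.6), ahead of Il4ra (99.4 ± 34.3), and Socs1 (55.5 ± 4.13), Jak1 (51.3 ± 2.61) and Il13ra1 (43.7 ± 4.92) overlapped in that order. Stat6 (30.9 ± 3.19), Socs2 (18.8 ± 0.677), Cish (9.12 ± 0.235), Jak2 (4.72 ± 0.547) and Tyk2 (1.14 ± 0.278) followed without overlap. In the monocultures Jak1 (51.5 ± 2.20, n = 4) and Il13ra1 (34.0 ± 6.17) stood above an overlapping run of Socs2 (9.88 ± 0.947), Il4ra (9.13 ± 2.38), Stat6 (5.29 ± 2.41), Socs1 (5.19 ± 2.11) and Jak2 (4.39 ± 0.860). Il13ra2 (1.94 ± 0.858) was below them, and Tyk2 (0.188 ± 0.0958) and Cish (0.181 ± 0.0615) were last and overlapped. Part of the order depends on the length used. Divided by the longest transcript, Il4ra in the WT cocultures stood at 114 ± 39.1 and overlapped with Jak1 at 75.6 ± 3.85, which then stood above Socs1, while Il13ra2 remained first. There Socs2 (42.2 ± 1.52) overlapped with Il13ra1 and stood above Stat6 (36.0 ± 3.72) without overlap. In the monocultures Socs2 (22.2 ± 2.13) then stood clear of Il4ra (10.4 ± 2.72). In the IL13KO cocultures Stat6 then stood above Socs1 without overlap, and Il13ra2 overlapped with Socs2.

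The genes most alike in pattern were ranked by the root mean square difference in centred log2 CPM over the 10 libraries, among 9096 genes with at least 10 CPM in a group. Il13ra2 had few companions: Ccl11, the eotaxin gene, differed by 0.44, Smpd3, a sphingomyelinase gene, by 0.61 and Aldh1a3, a retinaldehyde dehydrogenase gene, by 0.65, and only Ccl11 was within 0.5. Nearest to Cish were Loxl4, a lysyl oxidase gene (0.29), Ccl11 (0.35) and Aldh1a3 (0.38), with 6 genes within 0.5. Ccl11 averaged 841 ± 78.4 CPM in IL13KO coculture, 5938 ± 811 in WT coculture and 100.1 ± 15.6 in monoculture. Il4ra was matched by Med25 (0.15), Fbxl18 (0.15) and Usp20 (0.18), with 114 genes within 0.5. Socs1 was matched by Fam234b (0.18), Lmf2 (0.19) and B4galt5 (0.24), with 124 within 0.5, and Socs2 by Ethe1 (0.11), Nfkbia (0.12) and Basp1 (0.13), with 2564. The differences are in log2 units, so the number within 0.5 also depends on how far a gene moves between groups. It is no measure of how particular a pattern is. This ranking used levels from which the GC and length trend was not removed. The matches of Il4ra (55.8% GC) had 57.4, 56.5 and 55.9% GC in the order named. Those of Socs2 (45.4% GC) had 58.6, 52.9 and 56.4%.

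The other ligand, receptor and kinase genes of the pathway were few. Il4 had 6, 3 and 4 reads in the IL13KO cocultures, 2, 1 and 3 in the WT cocultures and 10, 4, 3 and 11 in the monocultures and was too low to be tested. Il2rg encodes the common gamma chain that pairs with IL-4Rα on blood cells, and it stood at 1.25, 0.909 and 0.624 CPM in the IL13KO cocultures, 2.20, 2.92 and 4.20 CPM in the WT cocultures and 0.845, 0.444, 0.645 and 0.914 CPM in the monocultures. It was called lower in IL13KO than in WT coculture (-1.73 ± 0.37, edgeR adjusted p = 0.00509), and a predicted gene on the same strand covers 30.5% of its exon length. Il2rg is also in the leukocyte list above. Jak3, the kinase of that chain, had 48, 28 and 35 reads in the IL13KO cocultures, 47, 34 and 26 in the WT cocultures and 0, 1, 5 and 1 in the monocultures. Of all 16344 genes tested, 30.1% rose and 27.3% fell in IL13KO coculture against monoculture, and 32.8% rose and 29.7% fell in WT coculture. With the GC and length trend taken out, 3805 of them were called higher and 3649 lower in IL13KO coculture. In WT coculture these counts were 4776 and 4661. Of 6 receptor adaptor genes 2 rose in IL13KO coculture against monoculture, and 3 rose and 1 fell in WT coculture against monoculture. With the GC and length trend taken out, 2 were called higher and 3 lower in IL13KO coculture, and 1 higher and 3 lower in WT coculture, where Irs1 and Shc1 lost their calls. Pik3r2, a regulatory subunit of PI3-kinase, had the smallest adjusted p in both (3.50 ± 0.31 in IL13KO and 3.02 ± 0.31 in WT coculture, 1.92 and 1.73 once the GC and length trend was taken out). Its relative Pik3r1 was higher in IL13KO than in WT coculture (0.82 ± 0.13, edgeR adjusted p = 0.000835).

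The counts in this paragraph stand beside 30.1% higher and 27.3% lower of all genes tested in IL13KO coculture. In WT coculture the shares were 32.8% and 29.7%. Of the 5 other SOCS genes, 2 rose and 1 fell in IL13KO coculture against monoculture, and 2 rose and 2 fell in WT coculture. With the trend taken out, 3 were higher and 2 lower in IL13KO and 2 higher and 2 lower in WT coculture. Socs3, known for restraining IL-6 family receptors, stood at 369, 352 and 332 CPM in the IL13KO cocultures, 341, 347 and 225 CPM in the WT cocultures and 15.9, 22.4, 29.7 and 15.5 CPM in the monocultures. Like Il4ra it was far higher in both cocultures (log2 fold change 4.08 ± 0.22 and 3.87 ± 0.22 over monoculture, 2.95 and 2.90 with the trend removed), and the cocultures overlapped (0.21 ± 0.21 for IL13KO over WT, edgeR adjusted p = 0.525). Of the 5 other STAT genes tested, 4 rose in IL13KO coculture against monoculture, and 4 rose and 1 fell in WT coculture. Stat3 had log2 fold changes of 1.07 ± 0.11 and 0.75 ± 0.11, but -0.09 and -0.26 with the trend removed, so its direction depended on that choice. With the trend removed, 1 STAT gene was called higher and 1 lower in IL13KO coculture, and 1 higher and 2 lower in WT coculture. Of 8 other negative regulators tested, 7 rose and 1 fell in IL13KO coculture against monoculture, and 5 rose and 1 fell in WT coculture. With the trend removed these counts were 3 higher and 2 lower in each coculture, and Ptpn1 turned from higher (0.46) to lower (-0.89) in IL13KO coculture. Ptpn2, a phosphatase that acts on JAK1, JAK3 and STAT proteins, stood at 45.1, 50.0 and 44.6 CPM in the IL13KO cocultures, 96.4, 102 and 108 CPM in the WT cocultures and 40.0, 42.6, 33.1 and 38.1 CPM in the monocultures. It was called lower in IL13KO than in WT coculture (-1.13 ± 0.11, edgeR adjusted p = 1.7e-05).

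The next 2 lists stand beside the same shares of all genes tested, 30.1% higher and 27.3% lower in IL13KO coculture against monoculture. In WT coculture against monoculture they were 32.8% and 29.7%, and in IL13KO against WT coculture 11.7% and 11.6%. Of 13 tested STAT6 target genes of IL-4 or IL-13, 4 (Alox15, Arg1, Chil3 and Chil4) reached the filter level of 0.578 CPM in WT coculture alone, so that their direction came with their selection. Of the other 9, 3 rose and 1 fell in IL13KO coculture against monoculture, and 6 rose and 2 fell in WT coculture against monoculture. Between the cocultures 3 of these 9 were higher with IL13KO than with WT ILC2s and 4 were lower. Il1rl1, which encodes the IL-33 receptor ST2, stood at 12.5, 18.9 and 17.0 CPM in the IL13KO cocultures, 1267, 1445 and 1184 CPM in the WT cocultures and 7.35, 6.67, 4.98 and 8.58 CPM in the monocultures. Its difference between the cocultures (-6.33 ± 0.20, edgeR adjusted p = 2.86e-09) was larger than that of Ccl11 (-2.82 ± 0.15, edgeR adjusted p = 2.41e-07). Chil4, a chitinase-like gene with the close copy Chil3 that could share its reads, had 0 reads in each IL13KO coculture, 3394, 6674 and 6706 in the WT cocultures and 0, 1, 0 and 0 in the monocultures. Tgm2, a transglutaminase gene, went the other way between the cocultures (1.68 ± 0.21, edgeR adjusted p = 9.23e-05). It averaged 128 ± 20.1 CPM in the IL13KO, 39.7 ± 5.73 CPM in the WT cocultures and 21.6 ± 6.05 CPM in the monocultures. Between the cocultures, 11.7% of all genes tested were higher and 11.6% lower with IL13KO ILC2s. Of 8 tested genes known to respond to STAT5, the factor most tied to Cish, 2 were higher and none lower in IL13KO than in WT coculture. Against monoculture 2 rose and 2 fell in IL13KO coculture, and 3 rose and 3 fell in WT coculture. With the trend removed, 3 were higher and 2 lower in IL13KO coculture, and 1 was higher and 2 lower in WT coculture. Bcl6, a transcriptional repressor gene of that list, fell by 1.23 ± 0.19 in IL13KO coculture and by 1.29 ± 0.19 in WT coculture against monoculture (edgeR adjusted p = 0.000124 and 5.94e-05). Pim1, a kinase gene of the same list, rose by 1.78 ± 0.10 in IL13KO coculture and by 2.05 ± 0.10 in WT coculture against monoculture (edgeR adjusted p = 1.81e-07 and 1.29e-08).

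Among all genes tested, 30.1% rose and 27.3% fell in IL13KO coculture against monoculture, and 32.8% rose and 29.7% fell in WT coculture. In IL13KO against WT coculture, 11.7% were higher and 11.6% lower. Of 19 tested receptor chains of other cytokines that use Janus kinases, 13 rose and 1 fell in IL13KO coculture against monoculture. In WT coculture against monoculture 9 rose and 3 fell, and 7 were higher and 6 lower in IL13KO than in WT coculture. With the trend removed, 11 were higher and 2 lower in IL13KO coculture and 9 higher and 5 lower in WT coculture against monoculture. Csf2rb, the common beta chain for IL-3, IL-5 and GM-CSF, stood at 9.19, 12.6 and 11.2 CPM in the IL13KO cocultures, 49.5, 46.7 and 38.4 CPM in the WT cocultures and 0.760, 0.667, 1.29 and 0.211 CPM in the monocultures. Its order of groups was that of Il13ra2 and Cish, with an IL13KO over WT difference of -2.03 ± 0.24 (edgeR adjusted p = 8.48e-05), and reads may be shared with its near copy Csf2rb2. Il6st, the signalling chain of the IL-6 family, rose by 1.89 ± 0.13 in IL13KO and by 1.58 ± 0.13 in WT coculture against monoculture (edgeR adjusted p = 4.27e-07 and 4.25e-07). Prlr, the prolactin receptor, had 51, 42 and 15 reads in the IL13KO cocultures, 2, 2 and 3 reads in the WT cocultures and 128, 82, 55 and 65 reads in the monocultures, and was called higher in IL13KO than in WT coculture (edgeR adjusted p = 0.00058).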

How the data were processed

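Fibroblast RNA was amplified by a low-input protocol and read in pairs of 50 nt, per the labels. The submitters' processing notes name STAR 2.7.7a, Salmon 1.6.0, DESeq2, Trimmomatic 0.39, FastQC 0.11.9, Picard and the build GRCm38.p6. Which tool counted, with which annotation and strand, is not given in the sources used here. The table deposited by the authors holds raw counts for 22731 genes. A second deposited table of normalized signal equals the counts divided by a size factor per library, within 0.00249 counts, and was not used.

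Genes were filtered by edgeR's filterByExpr (16344 kept) and normalised by TMM. edgeR 4.0.16 (R 4.3.3) quasi-likelihood models had 1 coefficient per group over all 10 libraries, and p-values were adjusted by Benjamini-Hochberg over all genes tested. CPM are TMM-normalised. GENCODE M21, matched to 22647 identifiers, gave positions, exon lengths and GC content, and RefSeq the promoter windows. Alternatives were RLE and upper-quartile scaling, DESeq2 1.42.0, limma 3.58.1 voom, no filter, 1 CPM in 3 libraries, only the groups compared, a replicate block, loess removal of GC and length trends (span 0.4) and leaving out each library. The model was tested on counts simulated from the monoculture means. These had the same dispersion for all genes, no GC or length trend and few changed genes. The real libraries differ in these features, so the simulation does not cover them.

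The 10 genes and the other lists were chosen with earlier results of these data known. Of each other list, up to 3 called genes per comparison with the smallest adjusted p could be named, and a share of them is described.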

Additional observations from a re-analysis of the deposited data

Results flagged for a closer look

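Il4ra in the monocultures was set apart by 1 library. Monoculture 3 stood at 76.2 CPM and the other 3 at 46.5 to 48.4 CPM, so that the gap to its nearest neighbour was 0.937 of the whole range, above Dixon's critical value for 4 samples. The same check was made for all 10 genes in the monocultures and set apart no other, and by chance it sets apart about 5% of groups. All cocultures were above monoculture 3 for Il4ra, and without that library the log2 fold changes were 4.13 for IL13KO coculture over monoculture and 3.64 for WT coculture over monoculture.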

How the results depend on the processing

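Across the other settings and left-out libraries, 558 results for single genes of the 10 kept their side of the threshold. Of the rest, 7 newly passed it and 5 no longer did, and none changed sign while called. Uncalled log2 fold changes near no change could change sign. That of Jak2 for IL13KO over WT coculture, 0.02 in the main fit, ranged from -0.03 to 0.09 over the other settings. The changes concerned Il13ra1, Socs1 and Jak1. With the GC and length trend removed, 1 of the 10 genes (Jak1) was called lower in WT coculture than in monoculture, where there was none before. Without single libraries, 7 to 8 of the 10 were called higher in WT coculture than in monoculture.

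Between IL13KO and WT coculture, 3810 genes were called (1909 higher, 1901 lower). With only the cocultures in the fit there were 5806 (2933 higher, 2873 lower), and without single libraries 2337 to 4814 (1238 to 2426 higher, 1098 to 2388 lower). The lowest counts came without IL13KO coculture 2 (2337), IL13KO coculture 1 (2482) and WT coculture 4 (2523). With the replicate number as a block there were 2124 (1138 higher, 986 lower). Same-numbered libraries correlated at -0.126 to 0.028 in their deviations from the group means, so the numbers gave no pairing, and with the block no call among the 10 genes changed, while Il2rg missed the threshold (edgeR adjusted p = 0.0609). Upper-quartile scaling moved the median log2 fold change of all genes by -0.12 in WT coculture and by -0.10 in IL13KO coculture over monoculture. The cause of these shifts was not tested. Depth limits Tyk2 and Cish in the monocultures most, where single libraries held 7 and 9 reads. The counts of the other gene lists after taking out the GC and length trend, or without genes that reached the filter level in 1 group alone, were chosen after seeing the data.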
